A study of Mus musculus with 2 samples.

Results

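The genes of glycolysis and of the response to low oxygen were compared between SFZ cells, the cells of the surface layer of articular cartilage, and costal chondrocytes (CC), the cartilage cells of the rib. Members were all probe sets annotated to 1 of 36 listed glycolytic enzyme, glucose or lactate transporter and HIF pathway genes alone, where a probe set is a set of short oligos read together as a single signal. This gave 76 probe sets for 34 genes, of 34948 probe sets for 18194 genes that were used. *Gpi1* and *Eno1*, which encode the isomerase and the main enolase of glycolysis, had no probe set of this kind and were not analysed here. Both groups came from ICR mice at postnatal day 4. SFZ cells were isolated from the femur and tibia at the joint, and CC from ribs by collagenase, and both were grown in DMEM with 10% FBS, with no further treatment named. Not given in the sources used here were the number of animals behind each array and the oxygen level of the cultures. There was 1 Affymetrix mouse genome array per group, so no difference below could be checked against replicates, and none was tested.

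Glycolysis splits glucose into pyruvate in the cytosol and yields ATP without oxygen. Cartilage has no blood vessels, and its cells are known to depend on this pathway and to export lactate. When oxygen is low, prolyl hydroxylases of the EGLN family no longer mark the alpha subunit of hypoxia-inducible factor (HIF) for destruction. HIF then switches on genes for glucose transporters, glycolytic enzymes, pH control and vessel growth, through sites with the core letters ACGTG or GCGTG. Some steps are carried out by isoforms of skeletal muscle, which are kept apart here.

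The deposited values were MAS5 signals, linear intensities with a maximum of 13754 for SFZ cells and 13608 for CC. A background level, the 95th percentile of 84 probe sets of odorant, vomeronasal and taste receptor genes, was 28.2 for SFZ cells and 26.2 for CC. A marker passed in a cell type where its signal there was over 100 and its ratio over 2. Of all genes over 100 on at least 1 array, 2.38% passed in SFZ cells and 11.0% in CC. The labels were set against 6 superficial zone markers, of which 1 passed in SFZ cells and 2 in CC. *Prg4*, which encodes lubricin of the joint surface, reached 323 in SFZ cells against 73.6 in CC. *Gdf5*, a growth factor gene of the same layer, was at 93.1 and 74.2, a ratio of 1.25 with both signals under 100. Passing in CC were *Thbs4*, an extracellular matrix glycoprotein gene, at 108 and 388, and *Vcam1*, a cell adhesion gene, at 35.7 and 354. *Erg* was at 113 and 65.2, a ratio of 1.73, and *Creb5* was at 38.4 in SFZ cells and under background in CC. Thus 4 of the 6 markers had the larger signal in SFZ cells and 2 in CC, with a median log2 ratio of 0.44. Of 15 skeletal muscle markers, 13 passed in CC, against the 11.0% of all genes over 100, and their part in the results below was not tested. The SD of log2 ratios was taken over probe sets named for 1 gene with a signal over 100 on at least 1 array. It was 0.73 at mean signals from 100 to 1000 and 0.49 from 1000 to 10000, and it holds both noise and true differences. Probe sets of the same gene can be set against each other, but they read the same RNA on the same 2 arrays. Error between arrays or between preparations is therefore not part of the spread of such probe sets. The median SD of their log2 ratios was 0.14 over 3628 genes and 0.12 over the 16 member genes with several probe sets over 100.

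Most enzymes of the pathway had like signals in both cell types, while *Aldoc*, 2 HIF targets and 2 muscle isoforms passed the thresholds under each scaling. A gene counted as higher in a cell type where its signal there was over 100 and its ratio over 2, on its brightest probe set. Of 31 member genes over 100 on at least 1 array, 3 were higher in SFZ cells. These were *Aldoc*, *Car9* and *Ndrg1*, and they make up 9.68% of the members, against 2.38% of all 8987 genes over 100. Another 3 were higher in CC, namely *Pgam2*, *Eno3* and *Pfkfb4*, again 9.68%, against 11.0% of all genes. With the arrays scaled to a common median, and likewise with quantile normalization, 5 members passed in SFZ cells and 2 in CC, since *Slc2a1* and *Hk2* then passed and *Pfkfb4* did not. By probe sets, 7 of 61 over 100 passed in SFZ cells, or 11.5% against 2.27% of all 14595 probe sets over 100. Another 7 were higher in CC, or 11.5% against 10.4%. The 7 in SFZ cells were 4 of *Ndrg1*, 2 of *Aldoc* and 1 of *Car9*, the genes already counted, and 3 of those in CC were of *Ldhb*. Probe sets of a gene are not independent, so these shares restate the gene counts. The other 25 members over 100 passed in neither direction, and 15 members lay within 1.2-fold, or 48.4% against 41.6% of all genes over 100. The share within 1.5-fold was 61.3% of members against 73.0% of all genes. As log2 of SFZ over CC, the median was 0.03 over the 34 members and -0.18 over 12467 genes above background. The latter median was 0.01 with median scaling and 0.05 with quantile normalization. That of the members rose as well, to 0.22 and 0.16, and so stayed above that of all genes. Ratios as deposited are read here beside that shift.

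**Figure D1:**
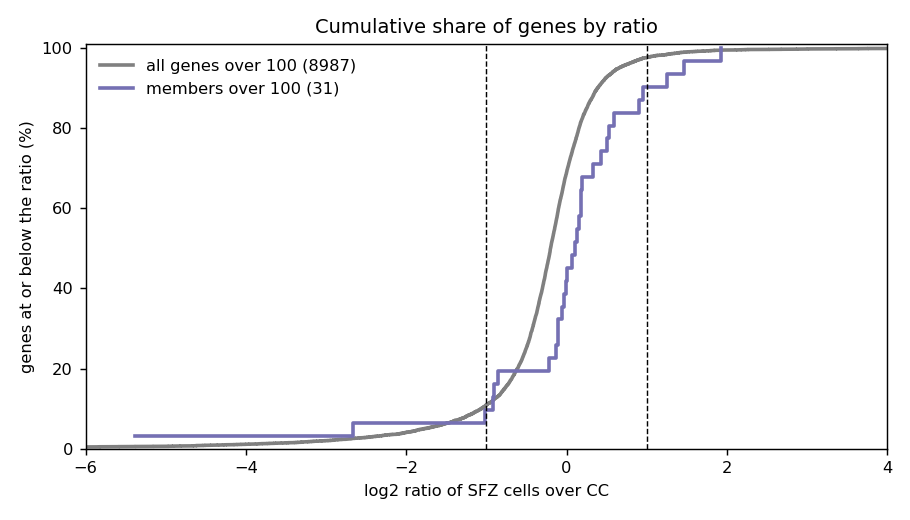
Cumulative share of genes, in percent, against the log2 ratio of SFZ cells over CC as deposited, for the 31 members and the 8987 genes with a signal over 100 on at least 1 array. Dashed lines stand at a 2-fold difference. The curve of the members lies to the right of that of all genes at the middle of the range, with a median of 0.10 against -0.20, and *Pgam2*, whose SFZ signal was under background so that its position is not a measured ratio, and *Eno3* make its long left tail.

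The promoters of members on which the results turn are shown to place the HIF core letters and the E-box. The E-box is a site of many factors, the muscle regulators of the MyoD family among them. The promoters are RefSeq windows of GRCm38.p6 from 250 bases before to 50 after the start site, printed on the strand of the gene. By symbol, 34 of the 36 listed genes were matched to 48 windows, *Gpi1* and *Eno1* included, and *Ndrg1* and *Slc2a3* were not among them. ACGTG was found on either strand in 24 of the 48 windows, or 50%, against 19.6% of all 32851 windows and 26.6% of the 9503 windows of genes over 100 on these arrays. ACGTG or GCGTG was found in 79.2%, against 43.8% and 63.7%. The median GC content was 60.8% for members, 52.7% for all windows and 61.3% for those of genes over 100. A match of letters is a description and not a binding site.
In the first 4 sequences, the capitals mark ACGTG and GCGTG on either strand. *Car9* and the first of 2 windows of *Aldoc* belong to genes higher in SFZ cells, *Slc2a1* to a gene just under the threshold, and *Adm* to a HIF target with the opposite direction.
*Car9*, chr4:43506776-43507075, + strand: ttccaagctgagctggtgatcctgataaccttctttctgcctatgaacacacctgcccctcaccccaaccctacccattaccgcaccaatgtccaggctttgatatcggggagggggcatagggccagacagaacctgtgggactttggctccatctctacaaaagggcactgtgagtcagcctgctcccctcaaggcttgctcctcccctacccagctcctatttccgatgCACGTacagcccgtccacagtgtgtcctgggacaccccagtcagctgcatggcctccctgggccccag
*Aldoc*, chr11:78322823-78323122, + strand: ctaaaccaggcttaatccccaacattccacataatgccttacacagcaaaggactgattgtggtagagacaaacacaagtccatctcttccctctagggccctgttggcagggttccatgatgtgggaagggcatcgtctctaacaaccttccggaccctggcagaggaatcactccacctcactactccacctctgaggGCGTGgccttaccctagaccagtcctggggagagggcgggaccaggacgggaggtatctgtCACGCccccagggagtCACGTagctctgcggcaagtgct
*Slc2a1*, chr4:119108495-119108794, + strand: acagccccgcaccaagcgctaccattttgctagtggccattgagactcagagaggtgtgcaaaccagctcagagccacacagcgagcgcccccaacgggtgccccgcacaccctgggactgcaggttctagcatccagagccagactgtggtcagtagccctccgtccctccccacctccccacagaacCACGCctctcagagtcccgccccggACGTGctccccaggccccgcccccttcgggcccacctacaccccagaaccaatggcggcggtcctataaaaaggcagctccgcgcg
*Adm*, chr7:110627407-110627706, + strand: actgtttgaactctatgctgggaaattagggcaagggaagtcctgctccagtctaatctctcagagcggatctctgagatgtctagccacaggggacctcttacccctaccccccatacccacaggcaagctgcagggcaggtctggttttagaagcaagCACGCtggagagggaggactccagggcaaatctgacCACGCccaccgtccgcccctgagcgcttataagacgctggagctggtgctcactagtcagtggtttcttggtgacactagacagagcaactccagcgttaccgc
In the promoter of the muscle isoform *Pgam2*, capitals mark the E-box CANNTG, which also takes in CACGTG and so overlaps with ACGTG.
*Pgam2*, chr11:5803747-5804046, - strand: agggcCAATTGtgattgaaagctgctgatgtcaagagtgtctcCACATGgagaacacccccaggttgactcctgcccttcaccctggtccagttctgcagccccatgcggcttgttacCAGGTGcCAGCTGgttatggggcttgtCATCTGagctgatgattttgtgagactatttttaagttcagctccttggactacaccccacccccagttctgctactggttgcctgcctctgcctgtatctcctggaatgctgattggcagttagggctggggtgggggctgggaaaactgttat
*Car9* held 1 HIF core match, with its first letter 18 bases before the start site, and *Slc2a1* held an ACGTG 36 bases and a GCGTG 61 bases before it. *Adm* held only GCGTG, at 90 and 54 bases before the start. *Pgam2* held no HIF core letters and 5 E-boxes between 245 and 105 bases before the start, the most of any member window. The window of *Eno3*, not shown, held a GCGTG 130 bases before the start and 2 E-boxes, and that of *Hif1a* held 4 E-boxes. E-boxes occurred in 66.7% of member windows, 72.3% of all windows and 62.3% of those of genes over 100. The HIF core letters were found in at least 1 window of 30 of the 34 matched genes. Their presence on both sides of a ratio of 1 therefore tells nothing about direction.

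Of 4 genes of glucose entry, 3 had the larger signal in SFZ cells, and none passed the thresholds. *Slc2a1*, the widely expressed glucose transporter, was at 4531 in SFZ cells against 2424 in CC, a ratio of 1.87. Its other probe sets, at 2748 and 1522 and at 2210 and 1169, had ratios of 1.81 and 1.89, so the 3 differed by an SD of 0.03 on the log2 scale. *Hk2*, the hexokinase of insulin-sensitive tissues, which traps glucose as its phosphate, was at 1671 in SFZ cells against 865 in CC on its only probe set, a ratio of 1.93. Of the genes over 100, 2.55% had a higher ratio than *Hk2* and 2.90% a higher one than *Slc2a1*. *Hk1*, the housekeeping hexokinase, was at 613 and 486, a ratio of 1.26, and at 175 and 102 on a second probe set, a ratio of 1.72. *Slc2a3*, the high-affinity transporter of neurons, was dim, at 57.5 in SFZ cells against 91.5 in CC, and 2 of its 4 probe sets were under background on both arrays. With median scaling the ratio was 2.13 for *Slc2a1* and 2.20 for *Hk2*, and both then passed in SFZ cells.

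Past the entry step, the main enzymes of glycolysis were close to equal. On their brightest probe sets, 8 of the 9 measured core genes had ratios from 0.916 to 1.35, and *Aldoc* was the exception. *Gapdh*, the dehydrogenase at the middle of the pathway, was at 10109 in SFZ cells against 10141 in CC on its brightest control probe set and had ratios of 0.964 and 0.980 on the others. *Pgk1*, the kinase that makes the first ATP of the pathway, was at 7682 and 7161, a ratio of 1.07, with 1.03 and 1.12 on 2 further probe sets. *Aldoa*, the aldolase of muscle and most other cells, was at 6400 and 6876, and its 5 probe sets had ratios from 0.850 to 1.0.
*Tpi1*, which interconverts the triose phosphates, was at 5716 and 5951, and its 3 ratios ran from 0.908 to 0.965. *Pgam1*, the non-muscle mutase, was at 4706 and 4505, and *Pkm*, the pyruvate kinase of most tissues, at 2453 and 2679. *Pfkl*, the liver-type phosphofructokinase, was at 777 and 792. *Pfkp*, the platelet type, was at 386 and 287, a ratio of 1.35, with 1.2 on a second probe set over 100. Whether the signals of these enzymes were near saturation was not tested. The side on which near-equal genes lay depended on the scaling. With median scaling *Aldoa*, *Gapdh*, *Ldha*, *Pfkl*, *Pkm* and *Tpi1* moved from below 1 to ratios between 1.04 and 1.14, and with quantile normalization *Gapdh*, *Pfkl*, *Pkm*, *Tpi1* and the muscle isoform *Pfkm* moved to ratios between 1.01 and 1.12, so no direction is given for them.

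*Aldoc*, the aldolase isoform known from brain, was higher in SFZ cells. It was at 1997 in SFZ cells against 724 in CC, a ratio of 2.76, and at 170 and 39.0 on its second probe set, a ratio of 4.37. Both probe sets passed in SFZ cells. Their SD of 0.47 was the widest among the members with several probe sets over 100, so the direction was shared but the size was not. Of all genes over 100, 1.08% had a higher ratio.

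**Figure D2:**
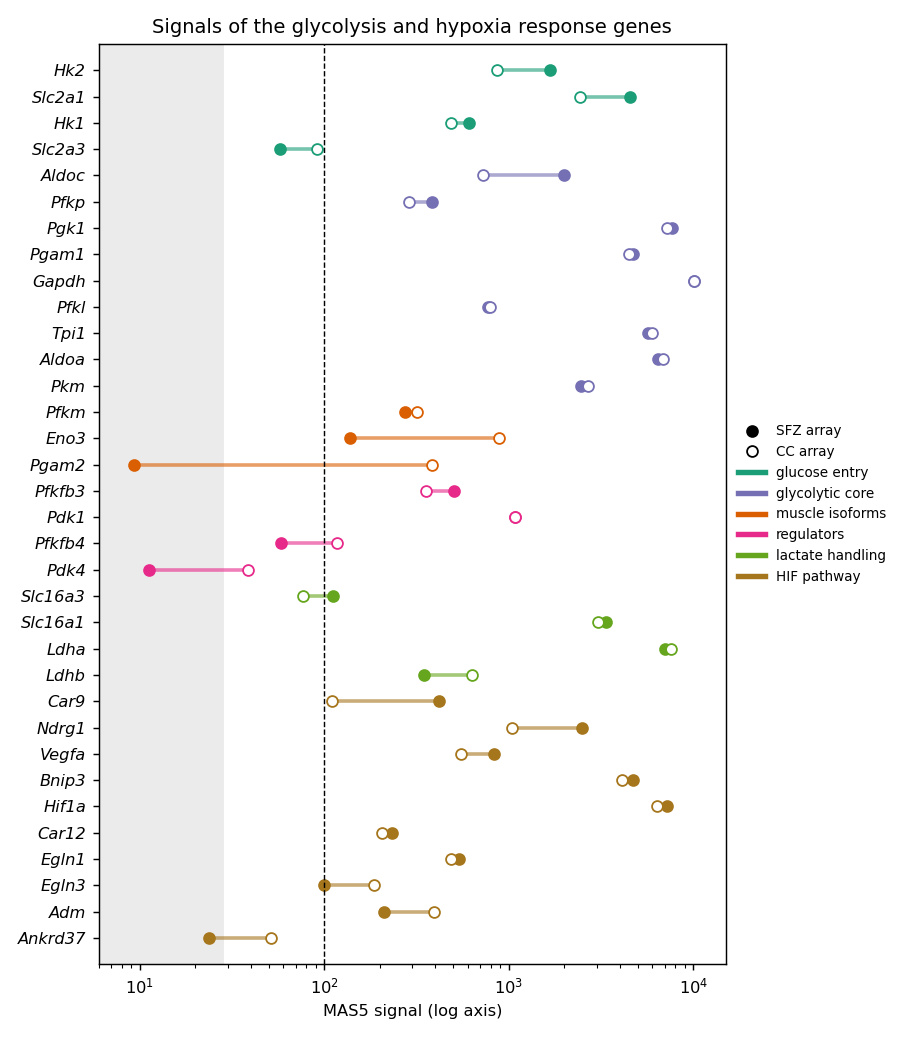
MAS5 signals of the 34 members on their brightest probe sets, on a log axis, with 1 SFZ array as filled points and 1 CC array as open points, coloured by role. A dashed line stands at 100, the minimum for a call, and the grey band covers signals under the SFZ background level of 28.2. The points of most core enzymes overlap. Those of *Aldoc*, *Eno3*, *Pgam2*, *Car9*, *Ndrg1*, *Pfkfb4*, *Pdk4* and *Ankrd37* lie more than 2-fold apart. The SFZ points of *Pgam2*, *Pdk4* and *Ankrd37* fall in the grey band.

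Of 3 muscle isoforms, *Pgam2* and *Eno3* were higher in CC. *Pgam2*, the phosphoglycerate mutase of skeletal muscle, was at 9.28 in SFZ cells, under background, and at 386 in CC, at least 13.7-fold higher. *Eno3*, the muscle enolase, was at 139 and 883, 6.36-fold higher in CC. *Pfkm*, the phosphofructokinase that muscle needs but that other tissues also express, was at 273 and 318, a ratio of 0.858, and did not pass. Each has only 1 probe set. The mutase of other tissues, *Pgam1*, had near-equal signals, with a ratio of 1.04.
The skeletal muscle markers above background had larger signals in CC. The 15 markers summed to 314 in SFZ cells and 31387 in CC, and the median log2 ratio of the 13 above background was -5.56. *Actc1*, the actin of embryonic muscle, was at 28.7 and 8228, *Myog*, a transcription factor of differentiating myoblasts, at 14.7 and 2721, and *Ckm*, muscle creatine kinase, at 19.9 and 291. *Pax7* and *Myf5*, which mark muscle stem cells and early myoblasts, were under background on both arrays. In bulk RNA, more cells of a type and more RNA per cell cannot be told apart, and the part of muscle cells in the signals of *Eno3* and *Pgam2* was not tested. Without the 3 muscle isoforms the median log2 ratio of the other 31 members was 0.10, and that of the 21 glycolytic members among them was 0.00.

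**Figure D3:**
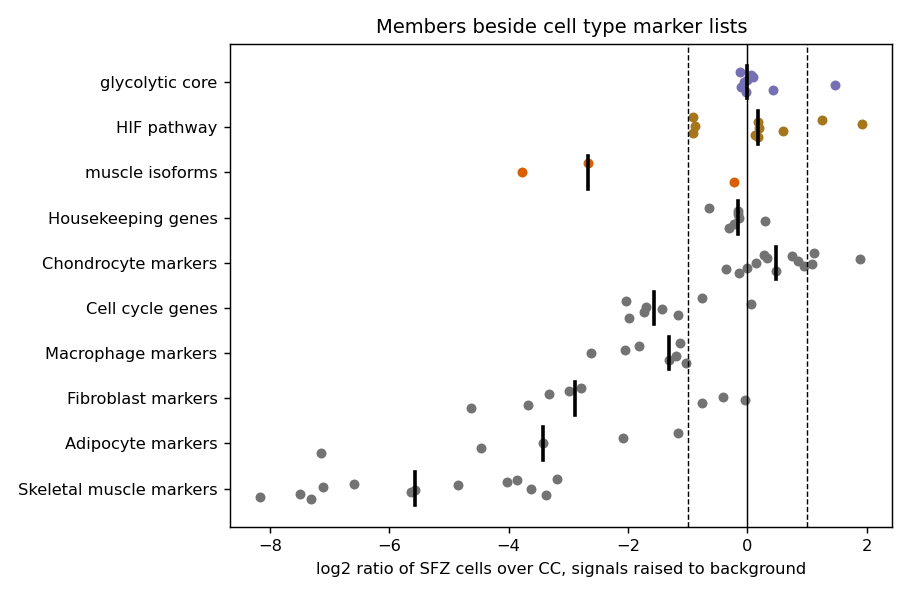
Log2 ratios of SFZ cells over CC, with signals raised to the background level, for genes above background on at least 1 array. Each point is a gene on its brightest probe set, the black bars are medians and dashed lines stand at a 2-fold difference. The glycolytic core lies near 0 with the housekeeping genes, whose median was -0.16, *Pgam2* lies at -3.78, a bound, and *Eno3* at -2.67, outside the range of the muscle markers, which ran from -8.16 to -3.19.

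The regulators went both ways and 1 passed. *Pfkfb3*, which makes the activator of phosphofructokinase, was at 506 in SFZ cells against 357 in CC, a ratio of 1.42, and its dimmer probe set had a ratio of 1.72. *Pfkfb4*, a second enzyme of this kind, went the other way, at 58.2 and 118, 2.03-fold higher in CC. That call was lost with median scaling, where the ratio was 0.562, after quantile normalization, with 0.608, and with 64 added to both signals, with 0.671. *Pdk1*, which shuts pyruvate dehydrogenase and is a known HIF target, was at 1079 and 1076, a ratio of 1.0, with 0.959 and 1.13 on 2 other probe sets over 100. *Pdk4*, the starvation-induced kinase of the same complex, was under background in SFZ cells at 11.3 and at 38.5 in CC.

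None of the 4 genes of lactate handling passed on its brightest probe set. *Ldha*, whose subunit favours the making of lactate, was at 7043 in SFZ cells against 7587 in CC, a ratio of 0.928. *Ldhb*, the heart-type subunit, was at 348 and 630 on its brightest probe set, 1.81-fold higher in CC and short of the threshold. On its 3 other probe sets it was at 211 and 567, at 278 and 596 and at 219 and 609, so that all 4 had lower signals in SFZ cells and these 3 passed in CC, by 2.14-fold to 2.78-fold. With the median over the probe sets the ratio of *Ldhb* was 0.417 and it counted as higher in CC. *Slc16a1*, a transporter that carries lactate in both directions, was at 3385 and 3032, a ratio of 1.12. *Slc16a3*, the transporter known for lactate export in glycolytic cells, was at 111 and 76.7, a ratio of 1.45 close to the minimum signal.

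On their brightest probe sets, the sensor and the factor of the HIF pathway had like levels, while targets went in both directions. A further probe set of *Hif1a* and the other of *Egln1* had ratios near 1.5, so like levels depend on the probe set chosen. *Hif1a*, which encodes the oxygen-regulated subunit, was at 7246 in SFZ cells against 6375 in CC, a ratio of 1.14, with 1.49 and 0.953 on 2 further probe sets, and HIF is controlled mainly through the stability of this protein, which arrays do not measure. *Egln1*, the main prolyl hydroxylase that senses oxygen, was at 536 and 488, a ratio of 1.10, and at 626 and 418 on its other probe set, a ratio of 1.5.
Of the 8 remaining genes, 5 had the larger signal in SFZ cells and 3 in CC. *Car9*, a membrane carbonic anhydrase that is among the HIF targets most used as a marker of hypoxia, was at 419 in SFZ cells against 110 in CC on its only probe set, a ratio of 3.80 that 0.545% of genes over 100 exceeded. *Ndrg1*, a cytoplasmic protein induced by low oxygen and other stress, was at 2490 and 1047, a ratio of 2.38. Its 5 probe sets had ratios from 1.71 to 2.38, and 4 of them passed in SFZ cells. *Vegfa*, the growth factor of blood vessels, was at 830 and 549 and at 343 and 227, with a ratio of 1.51 on both probe sets.
*Bnip3*, a mitochondrial protein of mitophagy, was at 4714 and 4109, a ratio of 1.15. *Car12*, another carbonic anhydrase of the cell surface, was at 234 and 207, a ratio of 1.13 that lay well short of that of *Car9*. *Adm*, which encodes the vasodilator peptide adrenomedullin, was lower in SFZ cells, at 210 and 395, 1.88-fold higher in CC, and at 176 and 458 on its second probe set, which passed in CC with 2.60-fold.
*Egln3*, a prolyl hydroxylase that HIF itself induces, was at 99.8 and 187, 1.87-fold higher in CC, while its dim second probe set had a ratio of 0.939. *Ankrd37*, an ankyrin repeat protein known as a HIF target, was under background in SFZ cells at 23.8 and at 51.7 in CC. The median log2 ratio of the 10 genes was 0.18, beside -0.18 over all genes above background. Within this list, *Car9*, *Ndrg1* and *Vegfa* thus lay on the SFZ side, *Adm*, *Egln3* and *Ankrd37* on the CC side, and *Bnip3* and *Car12* within 1.2-fold. Of these, only *Car9* and *Ndrg1* passed on their brightest probe sets. Genes of glucose entry and glycolysis, which HIF can also switch on, are described above and are not part of this tally.

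**Figure D4:**
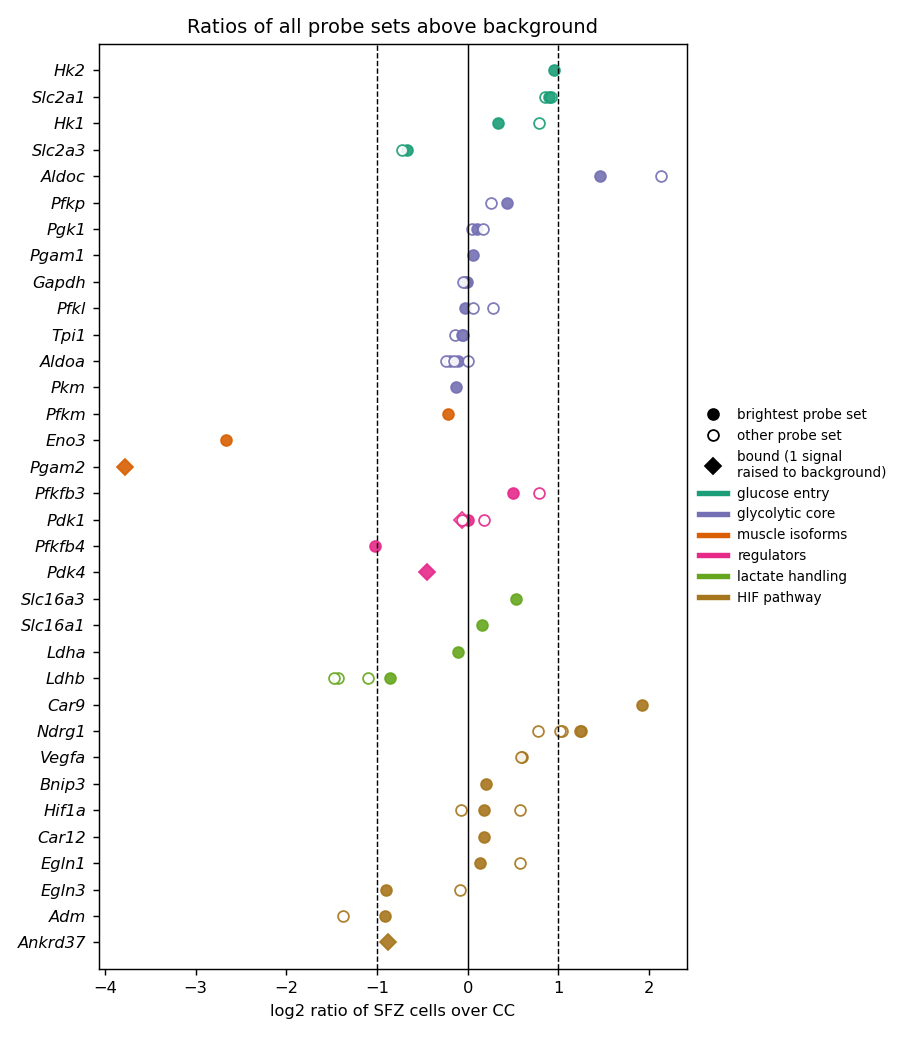
Log2 of the SFZ over the CC signal of the 69 probe sets of members above background on at least 1 array, with signals raised to the background level. Filled points are the brightest probe set of a gene, open points are others, diamonds are bounds, and dashed lines stand at a 2-fold difference. All 4 probe sets of *Ldhb* lie on the CC side and all 5 of *Ndrg1* on the SFZ side, while those of *Hif1a* lie on both sides of 0.

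Further genes of these pathways were taken from a list of 77, of which 68 were measured and 49 were over 100. Of these 49, 2 passed in SFZ cells and 7 in CC, where 2.38% and 11.0% of all genes over 100 did. Counts this small are not read as a departure from those shares. With median scaling the counts were 5 and 6, and with quantile normalization 4 and 6. *Eno2*, the neuronal enolase, was at 701 in SFZ cells against 230 in CC, a ratio of 3.05. *Hmox1*, heme oxygenase, induced by HIF but also by oxidative stress, was at 2997 and 1139, a ratio of 2.63. Just under the threshold were *Ero1a*, an oxidase of protein folding in the endoplasmic reticulum, and the glycoprotein gene *Stc2*, both with a ratio of 1.88, and the repressor gene *Bhlhe40* with 1.79.
Toward CC, *Igfbp3*, an IGF binding protein, was at 55.0 in SFZ cells against 494 in CC, 8.98-fold higher. *Epas1*, which encodes the other main alpha subunit of HIF, was at 109 and 360, 3.31-fold higher in CC, in contrast to the 1.14 of *Hif1a* toward SFZ cells. *Hif3a*, a further alpha subunit that can act as an inhibitor, was at 46.6 and 121, 2.59-fold higher in CC, on 1 of 6 probe sets. *Lox*, the collagen crosslinking oxidase, was at 1702 and 5236, 3.08-fold higher, with 1 of its 3 probe sets at a ratio of 1.58 in the other direction, and *Pdp1*, the phosphatase that turns pyruvate dehydrogenase on, at 116 and 451, 3.88-fold higher. *Gpd1*, an enzyme of glycerol phosphate synthesis abundant in fat and muscle, was at 18.9 and 106, at least 3.77-fold higher in CC, and *Fbp1*, of gluconeogenesis, was at 50.1 and 126, 2.51-fold higher. *Epas1* passed on the only 1 of its 2 probe sets that was above background, and *Gpd1* on 1 of 4. The call of *Gpd1* was lost with either scaling, those of *Fbp1* and *Hif3a* with 64 added to both signals, and those of *Gpd1*, *Epas1* and *Hif3a* when a gene took the median of its probe sets.
The subunits of pyruvate dehydrogenase itself, *Pdha1* at 1844 and 2728 and *Pdhb* at 1464 and 1768, did not pass, nor did the collagen prolyl hydroxylases *P4ha1* and *P4ha2*, with ratios of 1.33 and 1.37.

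The adipocyte, fibroblast, macrophage and cell cycle lists had larger sums in CC. The counts below stand beside 11.0% of all genes over 100 that passed in CC and 2.38% in SFZ cells. Of 6 adipocyte markers measured, 4 passed in CC, with sums of 1024 in SFZ cells and 11040 in CC. Of 8 fibroblast markers, 5 passed in CC, with sums of 17116 and 27659, and of 8 macrophage markers 4 did, with sums of 479 and 2153. The cell cycle list had a sum of 7704 in CC and 3506 in SFZ cells, and 6 of its 8 genes passed. Endothelial and erythroid markers gave no call, and all of their signals were under 100. Of 13 chondrocyte markers, 3 passed in SFZ cells and none in CC, with sums of 92306 and 67551, and their median log2 ratio of 0.48 lay above that of the members. The part of these lists in the ratios of *Car9*, *Aldoc*, *Ndrg1*, *Epas1* or *Lox* was not tested. The 3′ over 5′ ratio of the *Gapdh* control probe sets, which rises as RNA degrades, was 0.836 for SFZ cells against 0.850 for CC, and that of *Actb* was 1.35 against 1.24.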

How the data were processed

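Biotin-labelled cRNA from 100 ng of total RNA was hybridized to Affymetrix Mouse Genome arrays, 1 for SFZ cells and 1 for CC. The values the authors deposited were intensities on a linear scale, 1 MAS5 signal for each probe set. Not given in the sources used here were the version of MAS5, its scaling target and its detection calls. Signals were used as deposited, with no further scaling.

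Gene symbols came from GEO's annotation of the platform. Of 45037 probe sets other than controls, 34945 had 1 gene symbol, 932 had several and 9160 were unnamed here. The 3 *Gapdh* control probe sets were kept, as members. Each gene was represented by its brightest probe set, by mean log2 signal. A call needed a signal over 100 and a ratio over 2, after the thresholds of the study. Against a signal at or under background, a fold is given as a bound, computed against the background level. For medians both signals were raised to that level, and genes at or under it on both arrays were left out. Log2 ratios were computed here from the intensities. All members are named, and of the other pathway genes those past the thresholds. A few others were named after their values were seen, namely example markers, *Ero1a*, *Stc2*, *Bhlhe40*, *Pdha1*, *Pdhb*, *P4ha1* and *P4ha2*. The members and lists were chosen with earlier results of these data known. The counting was tested on simulated data, with planted folds larger than those of most members called here and in genes well above the minimum signal. That checks the code and not the calls reported here. With 1 array per cell type, the number of arrays limits the precision, and no p-value is given. Alternatives were other scalings, thresholds and rules for combining probe sets. Python 3.11.15, numpy 2.4.6 and pandas 2.3.3 were used.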

Additional observations from a re-analysis of the deposited data

How the results depend on the processing

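The 3 members higher in SFZ cells became 5 with median scaling, 5 with quantile normalization, 6 at a ratio over 1.5 and 1 at a ratio over 3. The 3 members higher in CC became 5 when a gene took the median of its probe sets, 5 where any probe set could pass and 6 at a ratio over 1.5, and *Ldhb* and *Adm* were gained in each case. The 2 other pathway genes higher in SFZ cells became 5 with median scaling, 4 with quantile normalization, 5 at a ratio over 1.5 and 1 at a ratio over 3, and the 7 higher in CC became 4 with the median over probe sets, 4 at a signal over 200 and 3 if all probe sets of a gene were required. Thresholds and rules act on counts by their construction. Where the scalings moved a count, the cause was not tested. The remaining counts stayed within 1.5 times the values as deposited. Over the alternatives run for it, the median log2 ratio of the members ran from 0.01 to 0.22 and that of the HIF pathway members from 0.18 to 0.37. No member that passed changed sign under the scalings, the added signal or the other rules for probe sets. No paired analysis was possible because there is 1 array per cell type, and no replicate could be left out. Signals near the background level, such as those of *Pdk4* and *Ankrd37*, limit ratios to bounds.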
